A study of Saccharomyces cerevisiae with 60 samples.

Results

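The mating-type cassettes of budding yeast are 3 loci on chr III that carry copies of the same regulatory genes: HML near the left end, MAT in the middle and HMR near the right end. The windows studied here were set by position on the R64 grid of the files. They run from the 3′ end of VBA3 to the 3′ end of CHA1 at HML, from within BUD5 into TAF2 at MAT, and over the genes, the adjoining stretches and the tRNA gene YNCC0014W at HMR. They comprise 300 of the 241434 windows of 50 bp, namely 100 at HML, 90 at MAT and 110 at HMR, and the members are 6 of 6431 annotated genes. HMLALPHA2 lies at 12386 to 13018 and HMLALPHA1 at 13282 to 13809, MATALPHA2 at 199546 to 200178 and MATALPHA1 at 200442 to 200969, and HMRA2 at 293179 to 293538 and HMRA1 at 293835 to 294321. Each region was divided into its genes, the stretch between them and the flanks to the left and right.

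At MAT the genes are expressed and set the mating type, whereas HML and HMR keep silent copies that serve as donors when MAT switches. Silencing starts at silencer elements that flank each silent cassette and bind ORC, Rap1 and Abf1, from which the Sir proteins, including the histone deacetylase Sir2, spread across the genes. Orc1 is the ORC subunit that contacts Sir1 at silencers, Mcm4 is a subunit of the MCM helicase that ORC loads at replication origins, and Fkh1 is a Forkhead transcription factor that binds origins, cell cycle promoters and the recombination enhancer that guides donor choice in MATa cells.

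ChIP-seq signal was measured in 60 libraries, 3 for each of 20 groups, to compare tagged chromatin proteins with control strains that express an epitope-tagged LexA protein. All strains were of the W303 background, MATa and bar1Δ, and grew in YEPD, either unsynchronized or held in G1 phase by α-factor. The groups in G1 were the controls MOP (LexA-MYC at ADE2, anti-Myc), FLOP (LexA-FLAG at ADE2, anti-FLAG M2) and HOP (LexA-HA at TRP1, anti-HA 12CA5), with Sir2-FLAG in FLOP cells, Orc1-HA and Mcm4-HA in HOP cells, Fkh1-MYC in MOP cells and Fkh1-FLAG in FLOP cells. The unsynchronized groups were an untagged strain, labelled WT, with each of the antibodies, MOP, FLOP and HOP (anti-HA 12CA5 and 16B12 for HOP and for the untagged strain), Fkh1-MYC in MOP cells, Fkh1-FLAG in FLOP cells, and strains without a LexA construct that express Fkh1-MYC, Fkh1-FLAG or, with either tag, fkh1-dbm, a form of Fkh1 with amino acid changes in its DNA-binding surface. LexA is a bacterial DNA-binding protein that yeast lacks, placed here together with its operators and driven by the ADH1 promoter in MOP and HOP and the TEF1 promoter in FLOP.

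The reference used for the windows carries the α genes at MAT, but the strains are MATa. Reads of the α genes at MAT windows therefore come from sequence that HML also holds, and reads of the a genes of MAT have their place at HMR. Summed counts ranged from 2116658 to 44263661 per library, and the mean raw count per cassette window ranged from 6.29 in an untagged anti-MYC library to 218.6 in a Fkh1-MYC library. Replicates correlated over the cassette windows with Pearson's r from 0.464, in untagged anti-MYC, to 0.978. Signal is the count after a moving median over 10 windows, divided by the 20th percentile of the library, so that 1 is the background level. RN (ratio-normalized) values are the ratio of the mean signals of a group and its control. A two-sided exact permutation test of 3 against 3 libraries cannot give a p below 0.1, so differences were called by edgeR on 500 bp bins. A bin was called where its adjusted p was under 0.05 and its log2 change was 1 or more in either direction.

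Across libraries, signal at the MAT genes followed that at the HML genes. Over the 28 windows from HMLALPHA2 to HMLALPHA1 and the windows at the same distance in MAT, the median MAT to HML signal ratio per window was 0.837 to 1.1 and Pearson's r over the 60 libraries was 0.919 to 0.959 (median 0.934). At 40 windows further right the same r was -0.016 to 0.669 (median 0.213). Left of the genes MAT still followed HML, with r of 0.538 to 0.910 over 27 windows (median 0.837), but at a lower level, with ratios of 0.298 to 0.804. The points share libraries, depth and, at least within the genes, sequence, and r is given as a description. How far sequence shared with HML reaches beyond the genes, at MAT or at HMR, was not mapped. MATALPHA1 had 0.932 times the signal of HMLALPHA1 (median of 60 libraries, range 0.606 to 1.3). The HMR genes did not follow HML in level: over the same 28 windows the HMR to HML ratio was 0.888 to 3.08 (median 2.24), and r was 0.817 to 0.941. Right of the HMR genes the median r was 0.676 and left of them 0.791. A high r was thus not particular to the α genes, but the HMR windows are not known to be free of sequence shared with HML. How much of r came from shared reads was not tested. In the 27 libraries of the 9 control groups HMRA1 had 2.77 times the signal of HMLALPHA1 (median, range 1.99 to 4.79), and HMRA2 had 1.14 times that of HMLALPHA2.

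**Figure D1:**
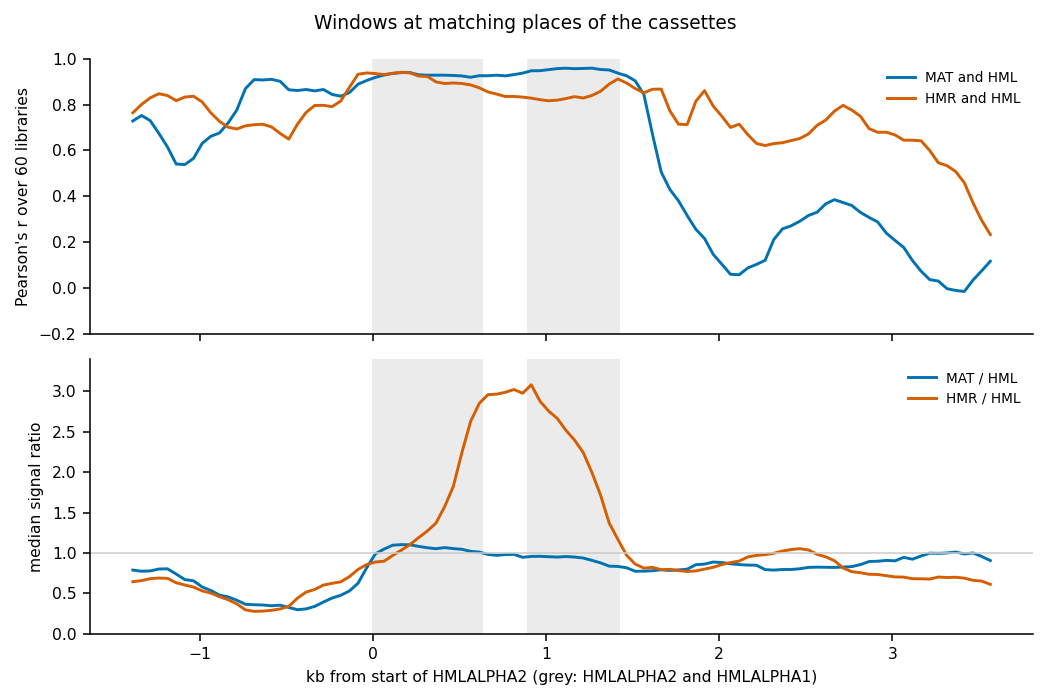
Windows of MAT and HMR against HML windows at the same distance from the start of the α2 or a2 gene (x axis, kb), with Pearson's r of the signal over 60 libraries (top) and the median signal ratio (bottom); grey bars mark HMLALPHA2 and HMLALPHA1. Over these genes MAT followed HML with r from 0.919 to 0.959 and a ratio near 1, and the HMR ratio reached 3.08.

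Sir2-FLAG signal lay above the control in the windows of all 6 genes and on the HML left flank. RN values at the genes ran from 1.41 at HMRA1 to 5.24 at HMLALPHA1. For its Sir2 plots of chr III the paper removed the α genes at MAT from the reference, so that their reads mapped to HML. The counts used here keep α windows at MAT, and signal in them, of any protein, cannot be assigned to MAT. HMLALPHA1, the gene for the activator of α-specific genes, had Sir2-FLAG signals of 3.46, 4.11 and 3.87 in the 3 libraries and FLOP control signals of 0.588, 0.862 and 0.733. HMLALPHA2, the gene for the repressor of a-specific genes, had 3.48, 3.56 and 3.22 against 0.827, 0.970 and 0.858. For both genes every Sir2-FLAG library lay above every FLOP library, and the RN values were 5.24 and 3.87 (exact permutation p = 0.1 each, the smallest possible).

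MATALPHA1 and MATALPHA2, which share their sequence with the HML genes, had RN values of 4.44 and 3.29. Their Sir2-FLAG signals of 3.30 ± 0.110 and 3.31 ± 0.0953 (SD, n = 3) lay close to those of HMLALPHA1 (3.81 ± 0.325) and HMLALPHA2 (3.42 ± 0.176). The MAT right flank, which holds the 3′ end of TAF2, a general transcription factor gene, had 1.21, 1.09 and 1.28 against 1.15, 1.36 and 1.3 in FLOP. These groups overlapped, with an RN value of 0.939 (exact permutation p = 0.4). Over the TAF2 windows alone the Sir2-FLAG signals of 1.05, 0.878 and 1.09 lay below the FLOP signals of 1.14, 1.37 and 1.3 (RN value 0.792). The run of MAT windows with RN values of at least 2 began at 198851 and ended at 201100.

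At HMR the windows of HMRA2 and HMRA1 differed in signal. Reads of the a genes of MAT also have their place there, so the difference cannot be assigned to HMR alone. Whether the HMRA2 windows also share sequence with HML was not mapped, so their values may not be independent of those at HMLALPHA2. HMRA2 had Sir2-FLAG signals of 3.44, 3.44 and 4.0 against 0.955, 1.36 and 0.815 in FLOP, an RN value of 3.48. HMRA1, whose product forms with α2 the repressor of haploid-specific genes, had 2.24, 2.62 and 3.57 against 2.18, 2.07 and 1.73. The lowest HMRA1 value of Sir2-FLAG was just above the highest of FLOP, and the RN value was 1.41. In FLOP the HMRA1 signal was 1.99, the highest of the 6 genes. As reads of the a genes of MAT fall in these windows too, the RN value of 1.41 is not that of HMR alone. Whether the FLOP level lowered the RN value was not tested.

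The flanks were as uneven. The HML left flank, which spans YCL068C, had 4.98, 6.34 and 4.96 against 1.24, 1.24 and 1.68 (RN value 3.91), and the averaged signal peaked there at 8.0 ± 1.88 in the window at 11751. By RN value this flank lay close to HMLALPHA2 and below HMLALPHA1, where the FLOP signal was lower too. The second library was the highest at that flank, with a peak of 10.2 where the other two had 6.90 and 6.94. The HML right flank had an RN value of 2.36, the HMR right flank 1.60 and the HMR left flank 1.28. With the median over windows in place of the mean, the log2 ratio of the HMR left flank was -0.12 in place of 0.36. In the average, the run of windows at HML with an RN value of at least 2 extended outside the region to 9301 on the left and ended at 14950, 5650 bp in all, and it was 5600, 5800 and 9450 bp long in the single Sir2-FLAG libraries. At HMR the longest such run was 1050 bp, from 292751 to 293800. The tRNA gene YNCC0014W in the HMR right flank, of the kind known to act as a barrier to silencing, had 3.19 ± 0.697 against 1.57 ± 0.195 (RN value 2.03). The gene is 73 bp long and the moving median spans 10 windows, so this value also reflects the sequence around it. The paper links the high expression of tRNA genes to non-specific ChIP enrichment.

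By edgeR, 15 of the 30 cassette bins were called higher in Sir2-FLAG than in FLOP and none lower, where 1.62% of the 24065 bins tested were called higher and 1.26% lower. These were 8 of 10 bins at HML, 4 of 9 at MAT and 3 of 11 at HMR, and DESeq2 also called 15. In these MATa strains the MAT bins over the α genes hold reads of sequence that HML carries. Calls there are not independent of the HML calls and cannot be assigned to MAT, here and in the other comparisons. The largest changes were 2.20 ± 0.20 (log2, SE) at MATALPHA1 in the bin at 200501 (adjusted p = 1.04e-13 by edgeR) and 2.19 ± 0.21 at HMLALPHA1 in the bin at 13501 (7.51e-13). The bin at 293001, with most of HMRA2, had 1.88 ± 0.20, and the bin at 294001, with most of HMRA1, had 0.81 ± 0.21 and was not called. Over all bins 390 were called higher and 304 lower, and 240 and 565 with TMM normalization. Without Sir2-FLAG replicate 2 the number called higher was 258. The median over all bins was 0.19 in the main scaling, and the median of the cassette bins was 1.11 and with TMM 0.92. Of the 30 bins 22 were higher in every Sir2-FLAG library than in every FLOP library, against 36.1% of all bins.

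**Figure D2:**
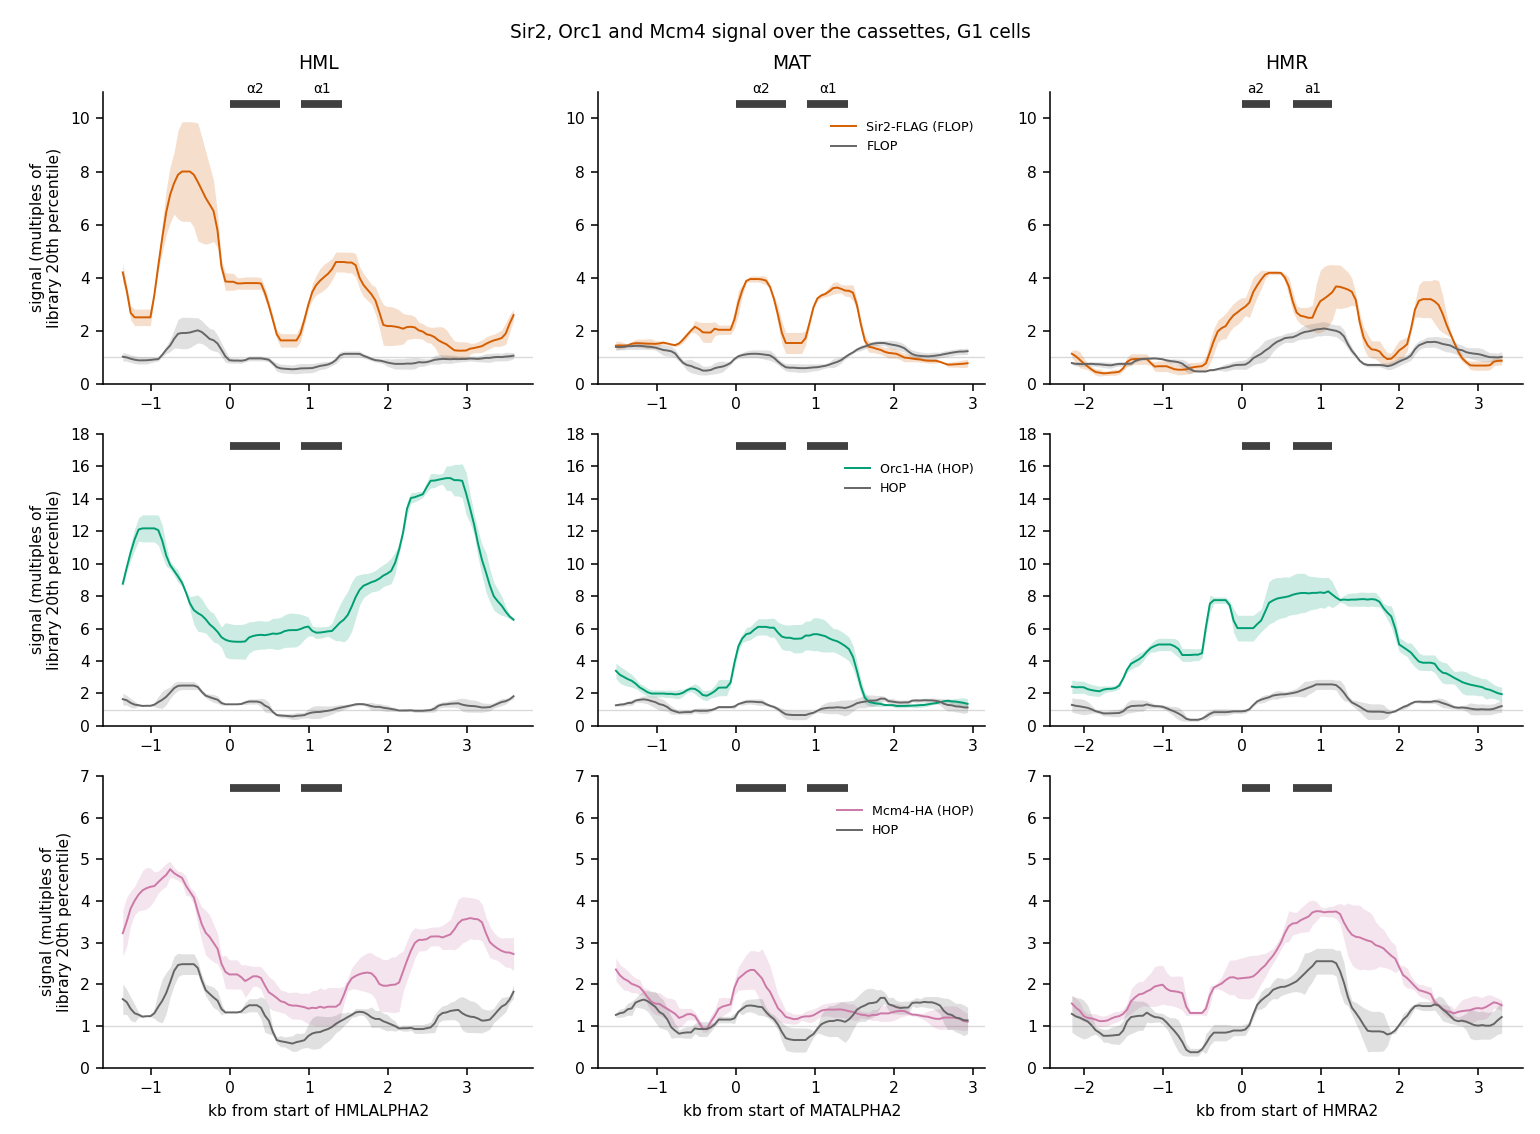
Mean signal of G1 libraries (y axis, multiples of the library's 20th percentile) by distance from the α2 or a2 gene (x axis, kb) at HML, MAT and HMR for Sir2-FLAG, Orc1-HA and Mcm4-HA and their controls; bands are the SD of 3 libraries and dark bars the genes. Sir2-FLAG peaked at 8.0 left of the HML genes, Orc1-HA at 12.2 and 15.3 on either side of HML, and Mcm4-HA at 4.76 left of HML. These are signals, not RN values, and reads of the α genes are placed at both HML and MAT.

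Orc1 signal was highest outside the HML genes and raised over all of HML and HMR. On the HML right flank the Orc1-HA signals were 11.6, 11 and 10.8 against 1.34, 1.08 and 1.20 in HOP, an RN value of 9.26. The left flank had 9.61, 9.12 and 8.51 against 1.65, 1.91 and 1.78, an RN value of 5.1. The groups did not overlap on either side (exact permutation p = 0.1), and the averaged signal had its summits at 11251 (12.2 ± 0.834) and 15101 (15.3 ± 0.759), either side of the genes.

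Within the HML genes the signal was lower than on the flanks but far above HOP. The HOP signal was itself lower at HMLALPHA1 than on the HML left flank. By RN value HMLALPHA1 lay above that flank and below the right one, and HMLALPHA2 lay below both. Reads of the α genes are also placed at MAT windows, and how far this lowered the gene signal was not tested. HMLALPHA1 had 6.51, 5.68 and 5.65 against 0.791, 0.706 and 1.18 (RN value 6.66), and HMLALPHA2 had 6.52, 5.02 and 4.85 against 1.33, 1.37 and 1.13 (4.28). All Orc1-HA libraries exceeded all HOP libraries at both genes. MATALPHA1 had 6.25, 5.41 and 4.51 (5.26) and MATALPHA2 had 6.27, 5.67 and 5.30 (4.53). The MAT right flank had 1.56, 1.64 and 1.52 against 1.33, 1.58 and 1.43, which overlapped (RN value 1.08, exact permutation p = 0.3). The MAT left flank, with the 5′ part of BUD5, a bud-site selection gene, had an RN value of 1.94.

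At HMR the Orc1 signal covered genes and flanks. HMRA1 had 9.33, 7.99 and 7.28 against 2.15, 2.26 and 2.76, the highest of the 6 genes in both Orc1-HA and HOP. Its RN value of 3.43 was the lowest of the 6. Reads of the a genes of MAT are placed there too, so the level is not that of HMR alone. HMRA2 had 7.43, 6.26 and 5.79 against 1.55, 1.37 and 1.29 (RN value 4.64). The left flank of HMR rose to 7.75 ± 0.196 at 292801 and had an RN value of 4.75, and the right flank had 3.87. No Orc1-HA library overlapped a HOP library at the HMR genes or flanks. Windows with an RN value of at least 2 made up 100 of 100 at HML, 51 of 90 at MAT and 105 of 110 at HMR. The HML run reached from 4351 to 16550, 12200 bp in the average and 9550 to 12450 bp in single libraries.

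By edgeR, 26 of 30 cassette bins were called higher in Orc1-HA than in HOP and none lower, against 3.64% and 0.175% of the 24056 bins tested. All 10 bins of HML, all 11 of HMR and 5 of 9 at MAT were called. The largest change was 3.92 ± 0.18 (log2, SE) in the HML bin at 14501 (adjusted p = 7.48e-28 by edgeR), followed by 3.38 ± 0.18 at 15001 and 3.30 ± 0.19 in the HMR bin at 292501, left of HMRA2. The bin at 294501, right of HMRA1, had 3.13 ± 0.19. With a library left out, the MAT bin at 199001 went below the log2 limit without HOP replicate 3 (0.99) or Orc1-HA replicate 3 (0.97), and the last HMR bin did so without HOP replicate 1 (0.87) or Orc1-HA replicate 2 (0.95). Of the 30 bins 27 were higher without overlap, against 11.2% of all bins.

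Mcm4 signal was above HOP on the flanks of both silent cassettes, with no bin called at MAT. On the HML left flank Mcm4-HA had 3.90, 3.64 and 4.14 against the HOP values above, an RN value of 2.19, and on the HML right flank 2.55, 2.65 and 3.15 (2.31). The HMR left flank had 1.60 ± 0.138 against 0.918 ± 0.0726 and the HMR right flank 2.18 ± 0.244 against 1.25 ± 0.214, with RN values of 1.74 each. None of these flanks overlapped HOP. The genes had lower RN values: HMLALPHA1 had 1.66, 0.976 and 1.74 against 0.791, 0.706 and 1.18, which overlapped (1.63, exact permutation p = 0.2), and MATALPHA1 had 1.28, 1.26 and 1.52 against 0.842, 0.918 and 1.31 (1.32, p = 0.3 by the exact permutation test). HMRA1 had 3.77, 3.39 and 3.81, all above HOP, with an RN value of 1.53.

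By edgeR, 8 of 30 cassette bins were called higher in Mcm4-HA, 5 at HML, 0 at MAT and 3 at HMR, against 2.14% of 24060 bins. None was called lower, against 0.682%. At MAT, 2 bins had an adjusted p below 0.05 and 0 were past the log2 limit, and at HMR 7 of 11 had an adjusted p below 0.05. The HMR bin at 295501, with most of the tRNA gene, had 0.071 (adjusted p = 0.877). The largest changes were 1.79 ± 0.19 in the bin right of HMRA1 at 294501 (adjusted p = 5.61e-11), 1.69 ± 0.17 in the first bin of HML and 1.67 ± 0.18 in the HML bin at 14501, the bin with the largest Orc1 change. DESeq2 and TMM normalization each gave 9, and 7 to 9 were called with a library left out. Of the 30 bins 21 were higher without overlap, against 8.76% of all bins. Orc1-HA and Mcm4-HA were compared with the same HOP libraries, so the values stand side by side and their likeness was not tested.

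**Figure D3:**
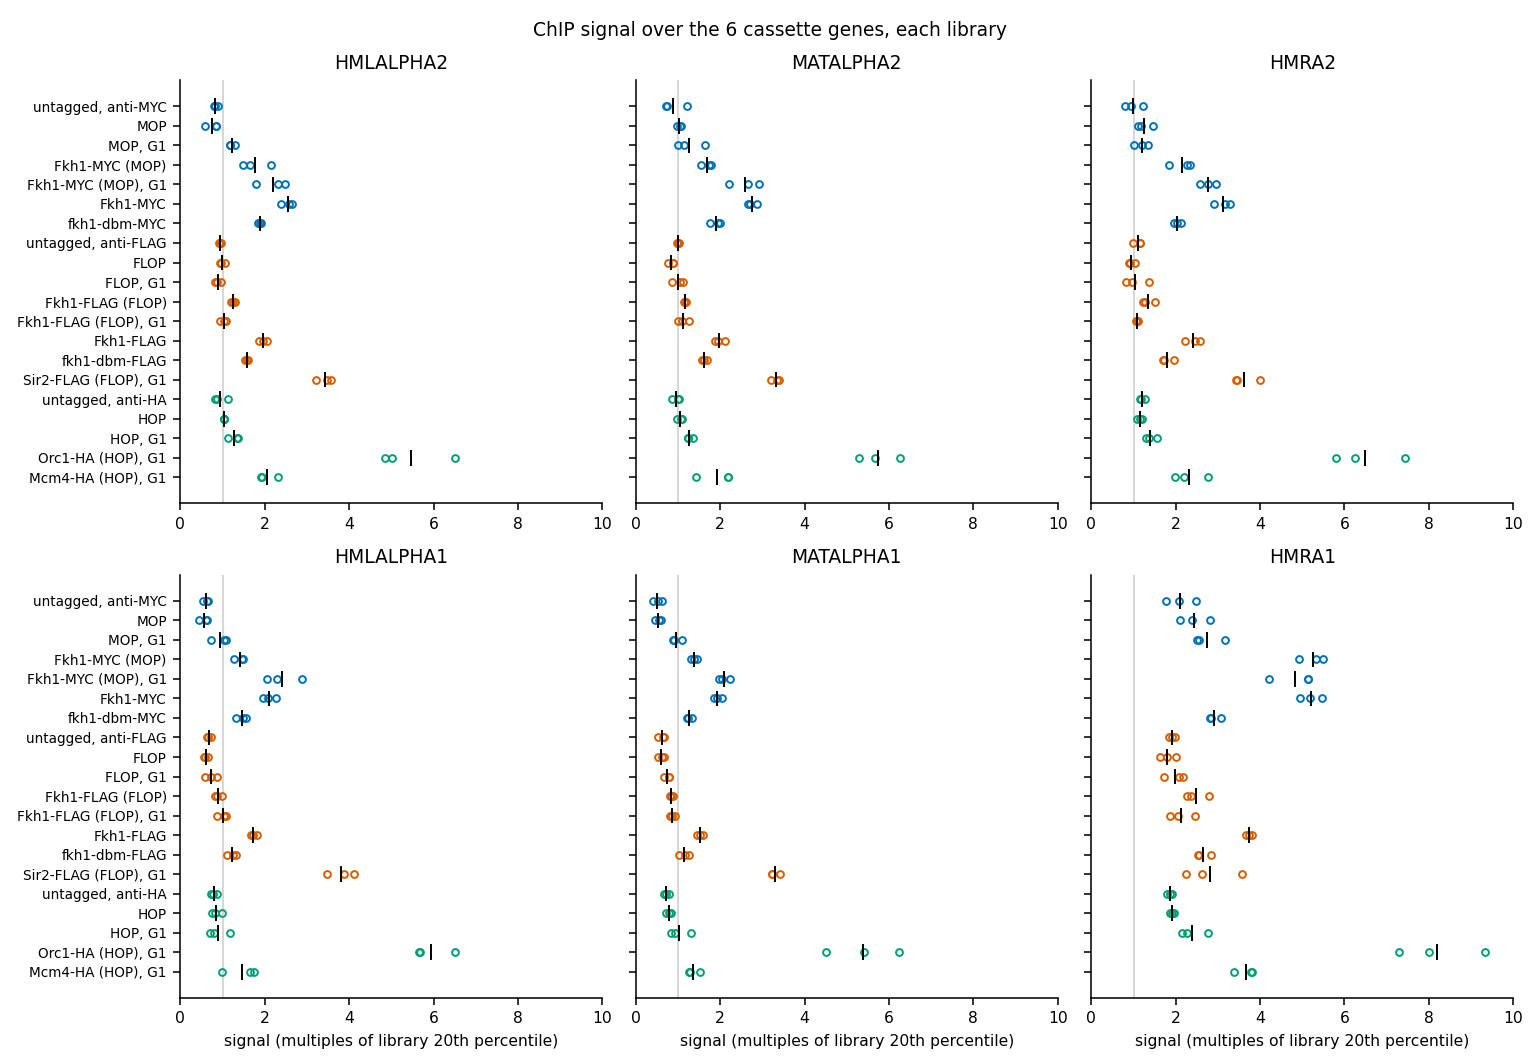
Signal at the 6 genes (x axis, multiples of the library's 20th percentile) in the 20 groups (y axis); circles are libraries and black ticks group means. Orc1-HA was the highest group at every gene, from 5.39 at MATALPHA1 to 8.20 at HMRA1.

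Fkh1 signal was above the controls at the HML left flank with both tags. Over all 6 genes it was so with the MYC tag in both cultures and with the FLAG tag in unsynchronized cells. In unsynchronized MOP cells Fkh1-MYC had 3.76, 3.70 and 4.34 at that flank against 1.25, 1.15 and 1.39 in MOP, an RN value of 3.11. In G1 it had 5.26, 4.80 and 4.68 against 1.64, 1.61 and 1.67, an RN value of 2.99. Fkh1-FLAG had 2.26, 2.19 and 2.65 against 1.29, 1.26 and 1.19 in unsynchronized FLOP cells (RN value 1.90) and 2.04, 2.28 and 2.12 against 1.24, 1.24 and 1.68 in G1 (1.55). In each of these comparisons every Fkh1 library was above every control library. Both the level and the RN value were higher with the MYC tag, and the difference between tags cannot be told apart from that between antibodies and strains.

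Over the genes the Fkh1-MYC libraries lay between 1.26 and 1.48 at HMLALPHA1 in unsynchronized MOP cells, against 0.441 to 0.619 in MOP, and between 2.04 and 2.88 in G1 cells, against 0.732 to 1.08. The RN values were 2.52 and 2.53. MATALPHA1 had 2.59 and 2.17, and HMLALPHA2 had 2.35 and 1.81. At HMRA1, the gene with the highest background, the unsynchronized libraries had 5.33, 4.92 and 5.50 against 2.11, 2.38 and 2.82 (2.15), and the G1 libraries had 5.12, 5.14 and 4.22 against 2.5, 2.55 and 3.16 (1.76). Fkh1-MYC and MOP did not overlap at any of the 6 genes in either culture. With the FLAG tag RN values at the genes were 1.28 to 1.49 in unsynchronized cells, with no overlap, and 1.04 to 1.37 in G1 cells. In G1 the libraries overlapped at HMLALPHA2, MATALPHA2, HMRA2 and HMRA1.

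By edgeR, Fkh1-MYC in unsynchronized MOP cells had 15 of 30 cassette bins called higher, 8 at HML, 2 at MAT and 5 at HMR, against 2.93% of 24062 bins. In G1 cells 15 were called, 8, 3 and 4, against 5.63% of 24056 bins, and 12 with TMM, DESeq2 or scaling by the median. None was called lower in either culture, against 0.0416% unsynchronized and 0.391% in G1, and 28 and 26 bins were higher without overlap, against 16.4% and 19.4% of all bins. The largest changes were 2.11 ± 0.21 in G1 in the HML bin at 14501 (adjusted p = 1.61e-12 by edgeR) and 1.89 ± 0.20 in the first HML bin, which had 1.84 ± 0.17 in unsynchronized cells (1.99e-14). Right of HMRA1, in the bin at 294501, the changes were 1.85 ± 0.20 and 1.81 ± 0.17. The same positions led for Fkh1-FLAG. In unsynchronized FLOP cells 3 bins were called higher against 1.60% of 24067 bins, with 0.00416% lower, and 28 were higher without overlap, against 17.9%. Those called were the first HML bin (1.12 ± 0.11), that at 14501 (1.08 ± 0.10) and that at 294501 (1.01 ± 0.10). Of the 30 bins 25 had an adjusted p below 0.05, and without Fkh1-FLAG (FLOP) replicate 3 the count past the log2 limit was 0. In G1 2 bins of HML and none of MAT or HMR were called against 0.686% of 24065 bins, and no MAT bin had an adjusted p below 0.05. In this comparison 8 bins were higher without overlap, against 7.24%. The G1 count was 1 without FLOP replicate 1 or without Fkh1-FLAG (FLOP) replicate 2 or 3.

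**Figure D4:**
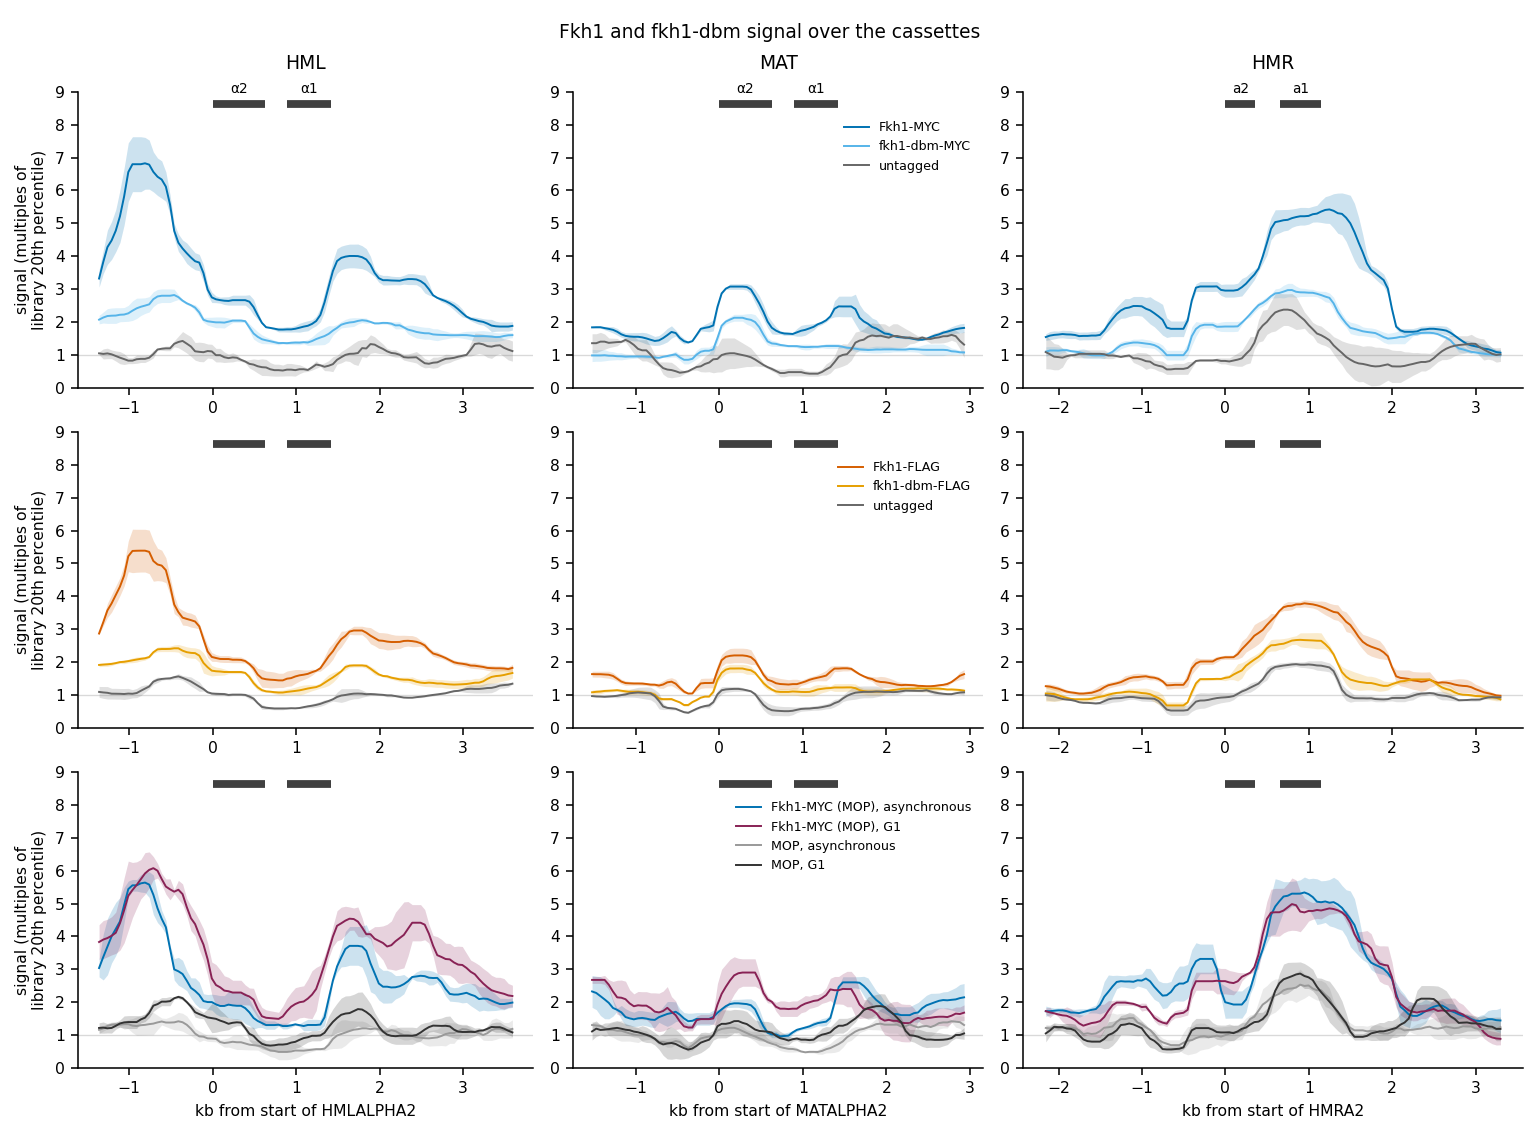
Mean signal (y axis, multiples of the library's 20th percentile) of Fkh1 with MYC or FLAG tag, its DNA-binding mutant and the matching controls by distance from the α2 or a2 gene (x axis, kb); bands are the SD of 3 libraries and dark bars the genes. Without a LexA construct, Fkh1-MYC peaked at 6.83 left of the HML genes where fkh1-dbm-MYC peaked at 2.82.

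The difference between cultures was tested as the change over the control in G1 minus that in unsynchronized cells. None of the 30 cassette bins was called by edgeR with either tag, where 1.1% of 24064 bins were called higher and 0.195% lower with MYC. With FLAG 0.0332% of 24068 bins were called higher and 0.195% lower. At an unadjusted p below 0.05 there were 4 cassette bins with each tag, and DESeq2 called 0. The differences at cassette bins ranged from -0.82 (adjusted p = 0.106 by edgeR, MAT bin at 201001) to 0.63 (0.348, HML bin at 14501) for MYC. For FLAG they ranged from -0.47 to 0.14.

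Without a LexA construct, Fkh1 signal was above that of fkh1-dbm at all 6 genes and at the left and right flanks of each cassette with both tags, and that of fkh1-dbm was above the untagged strain there, the MAT flanks with MYC excepted. At the HML left flank Fkh1-MYC cells without a LexA construct had 5.48, 4.58 and 5.37, fkh1-dbm-MYC cells had 2.47, 2.26 and 2.57, and the untagged strain had 1.15, 1.02 and 1.04. With FLAG the values were 4.43, 3.83 and 4.09 for Fkh1, 2.15, 2.09 and 2.21 for the mutant, and 1.33, 1.20 and 1.22 without a tag. In both series the 3 groups stood in this order with no overlap. The ratio of Fkh1 to the mutant was 2.11 with MYC and 1.91 with FLAG, and that of the mutant to the untagged strain was 2.3 and 1.72.

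At the genes the ratio of Fkh1 to mutant was lower than at that flank, a difference that was not tested. HMLALPHA1 had 2.3, 1.95 and 2.08 in Fkh1-MYC, 1.55, 1.32 and 1.48 in fkh1-dbm-MYC and 0.525, 0.666 and 0.619 in the untagged strain. The ratio of Fkh1 to mutant was 1.45, and that of mutant to untagged was 2.40. HMRA1 had 5.19, 4.94 and 5.47, then 2.82, 3.08 and 2.84, and 2.07, 1.76 and 2.47 without a tag, ratios of 1.79 and 1.39. Across the 6 genes Fkh1-MYC exceeded the mutant 1.35 to 1.79 times and Fkh1-FLAG did so 1.22 to 1.41 times, with every Fkh1 library above every mutant library. The MAT flanks differed from the genes: the fkh1-dbm-MYC signal was 0.786 times the untagged one on the MAT right flank and 1.01 times on the left, while Fkh1-MYC was 1.54 and 1.68 times the mutant there.

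By edgeR, 3 of 30 cassette bins were called higher in Fkh1-MYC than in the mutant, against 3.23% of 24067 bins, the first and next bins of HML (1.35 ± 0.09 and 1.09 ± 0.09) and the bin right of HMRA1 at 294501 (1.31 ± 0.09). With FLAG, 1 bin was called, against 1.78% of 24065 bins, the first of HML (1.20 ± 0.08, adjusted p = 4.96e-20), and the bin at 294501 had a change just under the limit (adjusted p = 1.90e-14). All 30 bins with MYC and 28 with FLAG were higher without overlap, against 23.4% and 16.5% of all bins, and 28 with MYC and 24 with FLAG had an adjusted p below 0.05. The FLAG count was 2 without Fkh1-FLAG replicate 1 or fkh1-dbm-FLAG replicate 1 or 3, and 3 without Fkh1-FLAG replicate 2. The median change over cassette bins was 0.69 with MYC and 0.43 with FLAG, where that of all bins was -0.034 and -0.042.

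Against the untagged strain, in comparisons added after the data were seen, Fkh1-MYC had 21 cassette bins called higher by edgeR (9 at HML, 4 at MAT and 8 at HMR) where 3.34% of 23016 bins were called. Fkh1-FLAG had 13, against 2.01% of 23015 bins. None was called lower with either tag, against 0.135% and 0.478%. The mutant had 11 with MYC, against 0.921% of 23013 bins, and 1 with FLAG, against 0.109% of 23015 bins, and none was lower, against 0.126% and 0.322%. Without overlap 27, 30, 21 and 24 bins were higher in these 4 comparisons, against 16.5%, 18.3%, 10.3% and 12.9% of all bins. For fkh1-dbm-MYC these were 6 bins at HML, 2 at MAT and 3 at HMR, the largest 1.47 ± 0.19 in the MAT bin at 200001 between the α genes (adjusted p = 0.000244). For fkh1-dbm-FLAG the same bin was the one called (1.14 ± 0.13, adjusted p = 9.04e-09). Without single libraries the fkh1-dbm-MYC count was 8 to 12 and the fkh1-dbm-FLAG count 1 to 2, the latter without fkh1-dbm-FLAG replicate 2. The MAT bin called with FLAG had 0.97 without untagged anti-FLAG replicate 1. The untagged anti-MYC libraries had the lowest depth and the lowest correlation with each other, and their part in the MYC values was not tested.

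**Figure D5:**
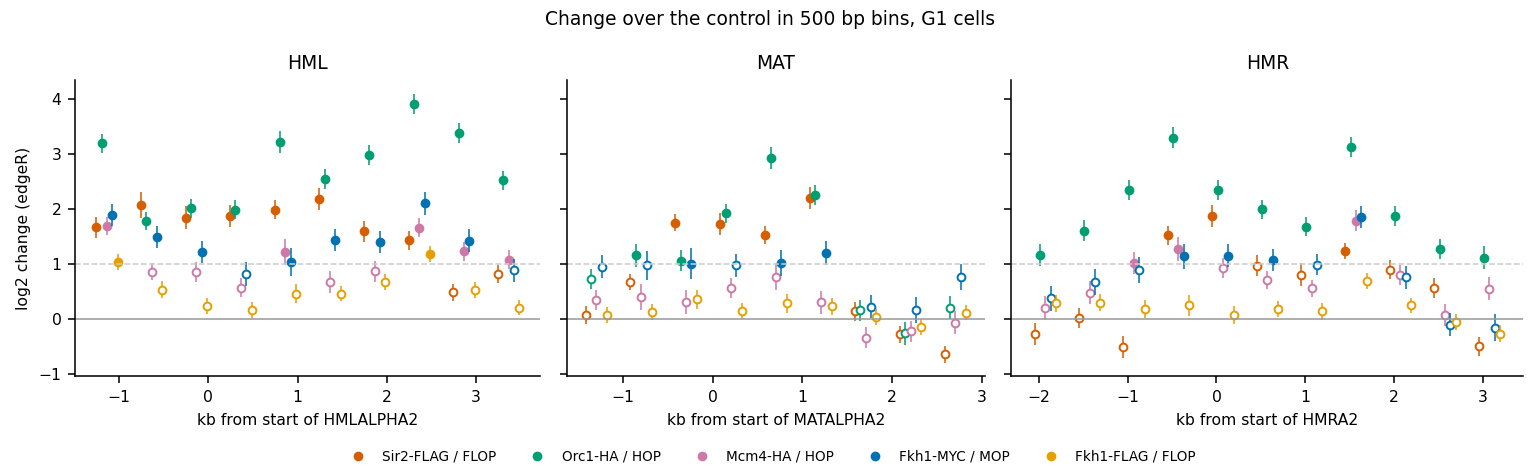
Log2 change over the control (y axis, edgeR) of the 30 cassette bins in G1 cells by distance from the α2 or a2 gene (x axis, kb); bars are SE, filled points called bins and the dashed line the limit of 1. Orc1-HA had 26 called bins, Sir2-FLAG and Fkh1-MYC 15 each and Mcm4-HA 8.

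The LexA controls and the untagged strain had no called difference in the cassette bins. Against the untagged strain no cassette bin was called by edgeR for MOP, FLOP or HOP. Of all bins, 0.0304%, 0.756% and 0.0540% were called higher for MOP, FLOP and HOP, and 0.0522%, 1.18% and 0.133% lower. At an unadjusted p below 0.05 there were 3, 5 and 1 cassette bins, and DESeq2 called 0. Without overlap, 7 cassette bins were higher and 0 lower in MOP, where 3.61% and 7.34% of all bins were. In FLOP 0 were higher and 8 lower, against 12.0% and 23.7%, and in HOP 1 was higher and 1 lower, against 7.52% and 10.1%. The RN values of FLOP at the 6 genes were 0.846 to 1.04. HOP had 0.954 to 1.1 at the genes and MOP 0.903 to 1.26. In these controls HMLALPHA1 had a median of 0.562 times the median of all windows, and HMRA1 had 1.62 times.

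Between cultures no cassette bin was called in MOP, FLOP or HOP by edgeR, where 3.31%, 0.740% and 1.47% of bins were called higher in G1 and 0.191%, 0.104% and 0.382% lower. Below the log2 limit, 6, 7 and 5 cassette bins had an adjusted p under 0.05 in MOP, FLOP and HOP, and 1, 3 and 0 with TMM. At an unadjusted p below 0.05 there were 9 in each, and DESeq2 called 0. Without MOP replicate 3, 1 bin was called in MOP. MATALPHA1 in MOP had 0.874, 0.908 and 1.09 in G1 against 0.464, 0.539 and 0.594 unsynchronized (ratio 1.80), and HMLALPHA1 had 1.70, both without overlap. These ratios move with the scaling: over all bins 796 were called higher and 46 lower in MOP, and 372 and 176 with TMM, whose median change was 0.20 lower. In HOP the counts were 353 and 92, and 147 and 254 with TMM.

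Of the genes known to act in silencing, 8 of 8 on the list had a tested bin at their midpoint, and of mating-type target genes 11 of 12. ORC1, the gene tagged for the Orc1 ChIP, was the 1 silencing gene called in that comparison (3.05 ± 0.19, adjusted p = 2.13e-22 by edgeR), and none of SIR1, SIR2, SIR3, SIR4, RAP1, ABF1 and SUM1 was called in any comparison. The median of the list was 0.40 for Sir2-FLAG where all bins had 0.19. Of the target genes, MFA2, which encodes the pheromone a-factor, was called higher with Fkh1-MYC over MOP in G1 (1.75 ± 0.20) and unsynchronized cells (2.10 ± 0.17). It was also called with Fkh1-FLAG over FLOP in unsynchronized cells (1.24 ± 0.10), and over the mutant with MYC (2.14 ± 0.09) and FLAG (1.30 ± 0.09). In each of these it was the 1 gene of 11 called higher, where 5.63%, 2.93%, 1.60%, 3.23% and 1.78% of all bins were. STE3, the gene for the a-factor receptor of α cells, was called higher with Orc1-HA (1.46 ± 0.17), 1 of 11, where 3.64% of all bins were. MFA1, the other a-factor gene, was called lower in Sir2-FLAG against FLOP (-1.51 ± 0.20) and higher in unsynchronized FLOP against the untagged strain (1.55 ± 0.10). Each was 1 of 11, where 1.26% and 0.756% of all bins were called in that direction. In MOP both a-factor genes were called higher in G1 than in unsynchronized cells, MFA2 by 1.14 ± 0.20 and MFA1 by 1.56 ± 0.19. These were 2 of 11, against 3.31% of all bins. STE2, the gene for the α-factor receptor, fell by 1.23 in FLOP against the untagged strain, the 1 of 11 called lower, against 1.18% of all bins. The list median of the 11 target genes was 0.15 for Sir2-FLAG. BAR1, deleted in all strains, had no tested bin.

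The order of the groups was read from the mean signal at HMLALPHA1 and HMRA1. At HMLALPHA1 Orc1-HA came first (5.95 ± 0.487), Sir2-FLAG next (3.81 ± 0.325) and then Fkh1-MYC in G1 MOP cells (2.40 ± 0.432), and neither Orc1-HA nor Sir2-FLAG overlapped its neighbour below. From Fkh1-FLAG (1.73 ± 0.0744), to the last, MOP (0.558 ± 0.101), neighbours overlapped with the single exception of fkh1-dbm-FLAG (1.23 ± 0.111) and Fkh1-FLAG in G1 FLOP cells (1.00 ± 0.112). At HMRA1 Orc1-HA was also first (8.20 ± 1.04), but Fkh1-MYC in unsynchronized MOP cells followed (5.25 ± 0.297) and Sir2-FLAG had 2.81 ± 0.684, where it overlapped the G1 MOP control (2.74 ± 0.366).

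Among 5547 genes over 10 kb from the cassettes, those whose log2 mean signal over the 20 groups was most like that of HMLALPHA1 were PAU6 on chr XIV (Pearson's r = 0.900), PAU16 (0.897), PAU9 (0.884), IMD2 (0.883) and YFR057W (0.882), where the median gene had 0.162. For HMRA1 they were OPY2 (0.885), FDO1 (0.883), YHL048C-A (0.863), SUP19 (0.852) and RGI2 (0.848), where the median gene had 0.060. The groups share control strains and depth, and these values are descriptions over 20 points.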

How the data were processed

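Per the study's methods, paired-end reads were aligned by Bowtie2, samtools dropped duplicates, and Bedtools counted the reads of each 50 bp window. The values the authors deposited are raw read counts per window, without normalization, and a read counts in each window it overlaps, so neighbouring windows are not independent. Reads of sequence shared by the cassettes cannot be assigned to 1 locus. Groups come from the labels; libraries of a group are not stated to come from separate cultures, so p-values cover the spread between these libraries only. Counts were summed in 500 bp bins and tested with edgeR 4.0.16 (glmQLFit, glmQLFTest) with Benjamini-Hochberg adjustment over all bins that reached 10 counts in 3 or more libraries. Library size was set by the 20th percentile of the windows. Right of the ADE2 construct, 1052 bins of chr XV were left out where coordinates differed from the untagged strain. Adjusted p-values are edgeR's. DESeq2 1.42.0 and TMM were alternatives. Replicate numbers did not pair the libraries: the correlation of same-numbered deviations was not above 0.1 in all 3 pairs in any comparison. Scripts ran in R 4.3.3 and in Python 3.11.15 (scipy 1.17.1). Genes named are the 6 members, genes overlapping the regions, called genes of 2 fixed lists and the 5 genes most like HMLALPHA1 and HMRA1. The members and lists were chosen with earlier results of these data known.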

Additional observations from a re-analysis of the deposited data

How the results depend on the processing

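Of 134 called cassette bins, 25 lost their call under some setting or left-out library, and 3 of them had an adjusted p of at least 0.05 there, 2 by edgeR with a library left out and 1 by DESeq2 only. With 1 library left out in turn, the called counts ranged from 15 to 16 for Sir2-FLAG, 25 to 26 for Orc1-HA, 7 to 9 for Mcm4-HA, 13 to 20 for Fkh1-MYC (MOP) in G1 and 13 to 17 unsynchronized, 1 to 2 for Fkh1-FLAG (FLOP) in G1, 0 to 4 unsynchronized, 3 to 4 for Fkh1-MYC and 1 to 3 for Fkh1-FLAG against the mutant, 0 to 1 for MOP between cultures, and 1 to 2 for fkh1-dbm-FLAG against the untagged strain. Fkh1-FLAG against the mutant had 1 called bin, 3 with TMM and 2 with DESeq2, scaling by the median or a replicate block; the cause was not tested. The replicate block gave 20 in place of 21 for Fkh1-MYC against the untagged strain, and besides these it changed no count of called cassette bins.

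Of 285 segment ratios, 77 were at least 2, and 73 to 78 with a library left out. Their log2 values changed sign in 4 of 855 cases: the HMR left flank in Sir2-FLAG (0.36) was -0.12 and the MAT left flank in Fkh1-FLAG (FLOP) in G1 (0.17) was -0.0061 with the median over windows, and HOP between cultures with median scaling was -0.089 in place of 0.14 at the HML left flank and -0.045 in place of 0.19 between the HMR genes. The median of all bins moved by -0.20 with TMM for Sir2-FLAG, by -0.20 for MOP and by -0.25 for HOP between cultures. Over all bins, the count of higher calls of MOP against untagged (7) was 1 to 64 with a library left out, and that of fkh1-dbm-FLAG against untagged (25) was 39 without untagged anti-FLAG replicate 2. The share of higher calls among all called bins of MOP against untagged was 36.8%, 54.5% with DESeq2 and 25% with a replicate block, and that of HOP was 28.9% and 11.4% with all libraries in 1 fit. The alternative with only unrepeated windows was not run, since it needs a genome. Untagged anti-MYC libraries, with a 20th percentile of 6 to 14.5 counts per window, had the lowest depth. Other groups were nearly as shallow, among them Fkh1-MYC (MOP) in G1 (8.5 to 15.5) and HOP in G1 (11 to 16.5). MOP had 11 to 15.5 in either culture. The controls of Fkh1-MYC (MOP), Orc1-HA and Mcm4-HA are thus shallow too. Of the 11 called bins of fkh1-dbm-MYC against the untagged strain, that right of HMRA1 had an adjusted p of 0.172 by DESeq2 (log2 change 1.26). It also lost its call by edgeR without untagged anti-MYC replicate 1 (log2 change 0.858) or replicate 2 (adjusted p = 0.09998). Without any single fkh1-dbm-MYC replicate its adjusted p by edgeR was 0.0753 to 0.120.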
